A study of Mus musculus with 27 samples.

Results

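Cerebellar tumours that arose when an activated form of Smoothened (SmoM2) was switched on by hGFAP-cre were compared with tumours in which the same allele was switched on by Math1-cre. The comparison used 9 of the 27 arrays of the series: 6 labelled hGFAP-cre:SmoM2 and 3 labelled Math1-cre:SmoM2, chosen by their titles and not by any measured value. Every one of these 9 samples was a mouse tumour that carried the SmoM2 allele and a Cre transgene. The labels gave no age, sex or strain. They call the arrays of a group biological replicates and name no animals, and the p-values rest on how far these samples differ from one another. The other arrays came from Tlx3-cre:SmoM2 (3), Olig2-tva-cre:SmoM2 (7) and Ptc1+/- (2) tumours and from 6 cerebellar samples without tumour, taken from Olig2-tva-cre:SmoM2 (2), hGFAP-cre:SmoM2 (1), Mxi1-cre:SmoM2 (2) and Ptc1+/- (1) mice. Those 18 arrays entered the shared estimate of spread and are given as side-by-side values.

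Smoothened is the membrane protein that starts the Hedgehog signal inside the cell, and SmoM2 does so without ligand. Hedgehog signalling drives division of granule neuron precursors, the cells of the external layer of the young cerebellum, and its overactivity gives rise to one class of medulloblastoma. Math1 (the gene Atoh1) is expressed in the granule neuron lineage, so Math1-cre acts in cells already committed to it. The human GFAP promoter of hGFAP-cre is active in earlier multipotent neural progenitors, which give rise to granule neurons as well as to astrocytes and Bergmann glia. The comparison therefore asks whether tumours differ in their RNA by the Cre driver that switched SmoM2 on. The labels do not say in which cell a tumour began.

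Few genes were called different. Of 13527 genes tested, 4 were called higher and 1 lower in hGFAP tumours at an adjusted p under 0.05, which is 0.0296% and 0.00739% of the genes, or 0.037% in either direction. The 4 higher genes were Itih3, Gli3, Plpp3 and Pltp, and the lower gene was Adck5. The count was not stable: 90 genes were called with array weights, 26 without the dimmest arrays, 12 without hGFAP replicate 1 and 1 without Math1 replicate 1. Of those dimmest arrays, hGFAP replicate 4 was the only one from the groups compared, and the rest were Olig2 and Ptc1+/- arrays. Without hGFAP replicate 4 alone the called genes were the same. An unadjusted p under 0.05 was reached by 1160 genes (8.58%), of which 642 were higher and 518 lower in hGFAP tumours. All 6 hGFAP arrays lay above all 3 Math1 arrays for 394 genes (2.91%) and below them for 340 (2.51%).

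**Figure D1:**
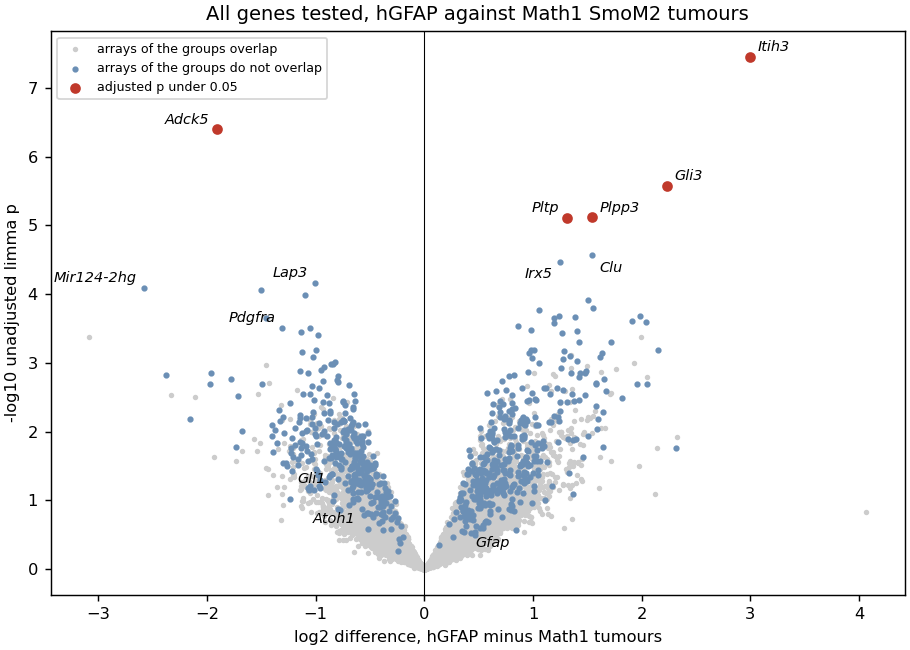
Each point is 1 of 13527 genes, with the log2 difference of hGFAP minus Math1 tumours on the horizontal axis and the negative log10 of limma's unadjusted p on the vertical axis. The 5 red points are the called genes, with Itih3 farthest to the right of them at 3.00, and blue points are genes whose arrays do not overlap between the groups.

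The 9 arrays differed in quality along with the groups. Before scaling, the mean signal of each array, with the outer 2% of values trimmed, was 74.1 to 153 (median 99.6) in hGFAP arrays and 140 to 160 in Math1 arrays. The log2 ratio of 3′ to 5′ signal over the Gapdh and Actb control probe sets, which is higher where RNA is more degraded or copied less far, was 0.32 to 1.88 in hGFAP arrays and -0.07 to 0.46 in Math1 arrays. hGFAP replicate 4 stood apart, with the lowest mean signal, 74.1, and the highest ratio, 1.88. Only hGFAP replicate 1 was as bright as the Math1 arrays, and only hGFAP replicate 3 had a ratio within their range. With the ratio as a covariate 2 genes were called, Itih3 and Adck5, and with brightness as a covariate 7 were called, the 5 genes among them. Their part in the other results was not tested beyond the values given with each.

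**Figure D2:**
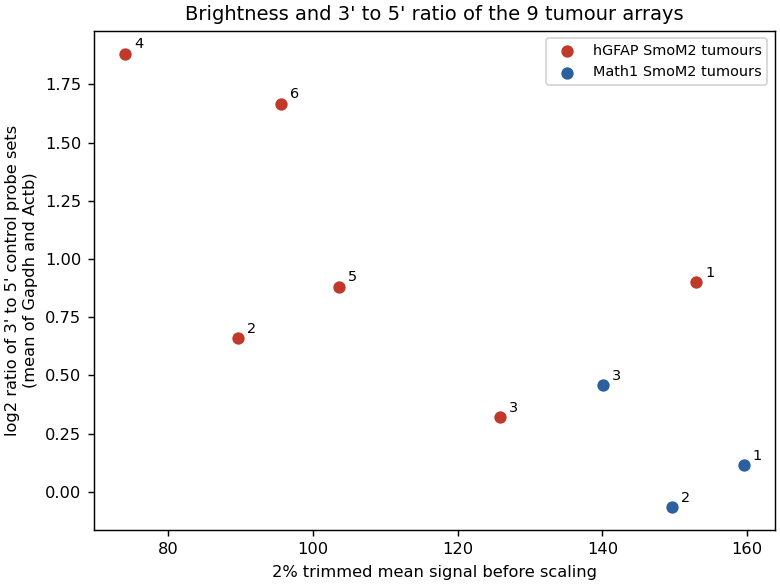
Each point is 1 array, numbered by replicate, with its 2% trimmed mean signal before scaling on the horizontal axis and the mean log2 ratio of 3′ to 5′ control probe sets on the vertical axis. The 6 hGFAP arrays span 74.1 to 153 and the 3 Math1 arrays 140 to 160, and hGFAP replicate 4 lies at the upper left.

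Itih3 encodes a heavy chain of the inter-alpha-trypsin inhibitor, a protein that binds hyaluronan in the extracellular matrix, and its transcript is enriched in astrocytes. Its log2 signal was 8.06 at the lowest, 8.69 at the median and 9.84 at the highest in hGFAP tumours, against 5.91, 5.66 and 5.82 in the Math1 tumours. Every hGFAP array was thus well above every Math1 array. Means were 8.79 ± 0.60 in hGFAP tumours (SD, n = 6) and 5.80 ± 0.13 in Math1 tumours (SD, n = 3), a log2 difference of 3.00 with a 95% interval of 2.18 to 3.82 (limma, adjusted p = 0.000479). Itih3 rose 8.0-fold, the largest change among the 5 called genes. As description, its mean was 6.48 in Tlx3 tumours, 7.93 in Olig2 tumours, 8.05 in Ptc1+/- tumours and 8.60 in cerebellum without tumour. Differences from those groups were not tested.

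Gli3 is the member of the Gli family of transcription factors that acts mainly as a repressor of Hedgehog targets when the pathway is off. Its log2 signal in hGFAP tumours was 6.66 at the lowest, 7.60 at the median and 8.04 at the highest, against 4.5, 5.88 and 5.65 in Math1 tumours. The groups did not overlap, and the lowest hGFAP value was that of replicate 1. Gli3 rose by a log2 difference of 2.23 (95% interval 1.45 to 3.01, limma adjusted p = 0.0119), or 4.69-fold. The other probe sets of Gli3 gave differences of 0.94 and 0.93, with some arrays at the floor, that were not called, so the call rests on 1 of 3 probe sets. When the 3 were averaged the difference was 1.37 and was no longer called. Without Math1 replicate 1, the array with the lowest Gli3 value, it was 1.81 and not called either, nor was it without Math1 replicate 3 (2.38). Its mean was 5.86 in Tlx3, 6.04 in Olig2 and 6.05 in Ptc1+/- tumours and 6.70 in cerebellum without tumour.

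The remaining genes that rose encode proteins of phospholipid handling. Plpp3, a membrane phosphatase that removes lysophosphatidic acid and related signalling lipids, had log2 signals of 9.28, 10.04 and 10.31 in hGFAP tumours (lowest, median, highest), against 8.32, 8.55 and 8.29 in Math1 tumours. It rose by 1.54 on the log2 scale (95% interval 0.96 to 2.12, limma adjusted p = 0.0210). Its second probe set gave 1.32 and was not called. Pltp, a phospholipid transfer protein of lipoproteins, had log2 signals of 8.76, 9.47 and 9.65 in hGFAP tumours, against 7.86, 8.11 and 8.18 in Math1 tumours. It rose by 1.31 (95% interval 0.82 to 1.80, limma adjusted p = 0.0210), and its second probe set gave 0.90, not called. Neither gene overlapped between the groups, and for both the lowest hGFAP value came from replicate 4. Each kept its call in 16 of 26 alternatives and lost it without any 1 of the 3 Math1 arrays or of hGFAP replicates 2, 3 and 5. Cerebellum without tumour had the highest group means of both, 10.69 for Plpp3 and 10.27 for Pltp.

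Adck5, an atypical kinase of the ADCK family of mitochondrial proteins, was the called gene that fell. Its log2 signal was 6.63, 6.97 and 7.36 in hGFAP tumours (lowest, median, highest), against 9.11, 8.69 and 8.79 in Math1 tumours, with no overlap. It fell by 1.91 on the log2 scale, with a 95% interval of -2.51 to -1.31 (limma, adjusted p = 0.00272). Means in the other groups were 7.98 in Tlx3, 8.27 in Olig2 and 8.08 in Ptc1+/- tumours and 6.49 in cerebellum without tumour. Without Math1 replicate 1 the difference was -1.79 and its adjusted p was 0.0801, the highest of 26 alternatives, and Itih3 was then the only gene called.

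**Figure D3:**
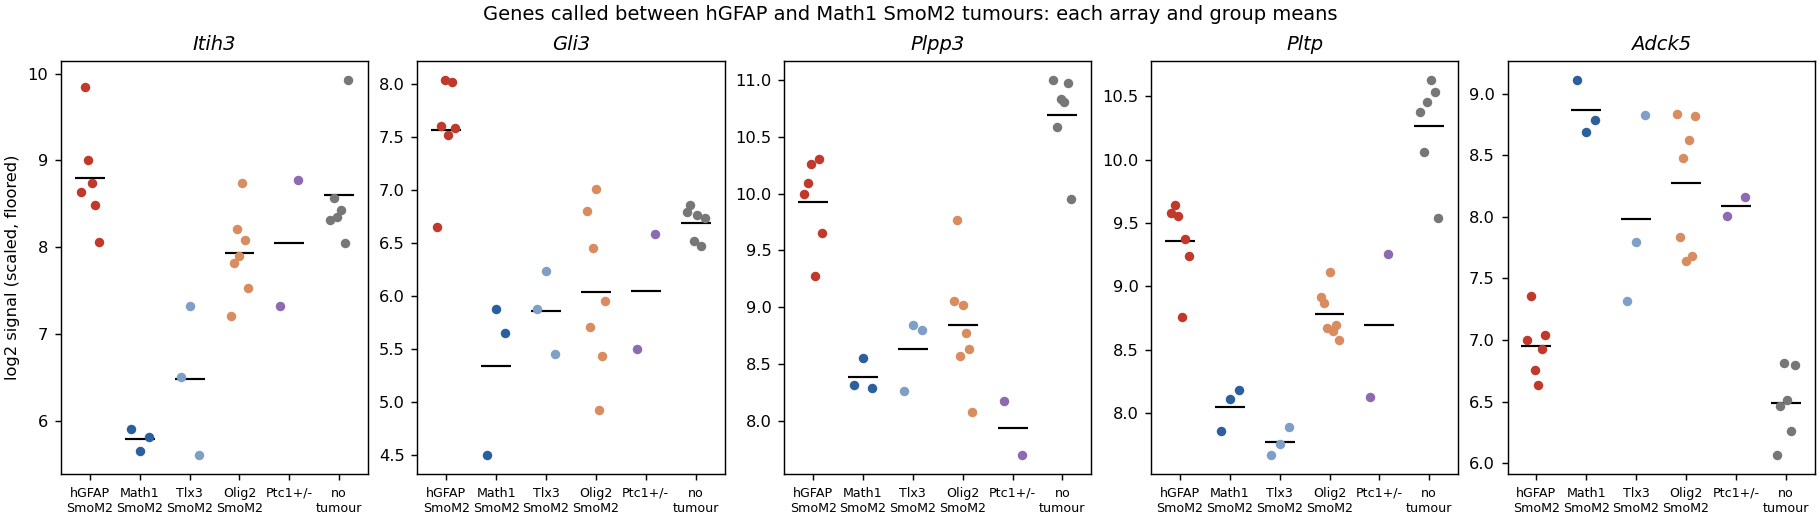
Log2 signal of the 5 called genes on each array (points) with the group mean (line), for hGFAP, Math1, Tlx3, Olig2 and Ptc1+/- tumours and cerebellum without tumour. For each gene the 6 hGFAP points lie entirely above the 3 Math1 points, or entirely below them for Adck5.

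The start regions of the genes with the largest rises are shown because these genes moved the most among those called higher. They are RefSeq windows of build GRCm38.p6, 250 bases before to 50 after the start, read on the gene's strand. Itih3 lies at chr14:30923538-30923837 on the minus strand and Gli3 at chr13:15463473-15463772 on the plus strand. Capitals mark matches to the E-box CAGNTG, the kind bound by Atoh1, searched on both strands.
Itih3: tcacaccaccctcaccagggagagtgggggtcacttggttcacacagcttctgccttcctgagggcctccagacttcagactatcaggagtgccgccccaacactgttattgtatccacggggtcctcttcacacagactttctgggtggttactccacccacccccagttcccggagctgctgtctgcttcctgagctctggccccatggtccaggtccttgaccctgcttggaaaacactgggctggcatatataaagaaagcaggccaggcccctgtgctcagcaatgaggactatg
Gli3: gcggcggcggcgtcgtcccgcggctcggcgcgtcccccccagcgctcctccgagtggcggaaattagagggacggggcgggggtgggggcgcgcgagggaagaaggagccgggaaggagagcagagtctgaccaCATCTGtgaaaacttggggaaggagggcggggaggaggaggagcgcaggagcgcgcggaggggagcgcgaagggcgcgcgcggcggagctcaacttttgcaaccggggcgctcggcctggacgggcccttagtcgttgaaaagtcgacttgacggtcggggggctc
The Gli3 window held 1 such match and the Itih3 window none. Among the other called genes, the Pltp window held 1 and the Plpp3 window none, and no Adck5 window was used. E-box matches occur in 51.4% of 32851 promoters of the same length. The Gli motif GACCACCCA (0.253% of promoters) and the palindromic nuclear factor I motif (0.0365%) had no match in any of the 4 windows on either strand. No matches overlapped.

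Astrocyte and Bergmann glia genes had mostly positive differences, hGFAP minus Math1. Of the 20 genes on this list, all of which were tested, 19 had a positive difference, and 7 had all hGFAP arrays above all Math1 arrays, against 2.91% of all genes. None lay below. The median difference was 0.71 on the log2 scale, against 0.04 over all genes, but Itih3 was the only member called. The list mean on each array was 9.16 to 9.85 in hGFAP tumours, 8.37 to 8.82 in Math1 tumours and 9.71 to 10.12 in cerebellum without tumour, so the tumour groups did not overlap. Without hGFAP replicate 4, 8 of the 20 lay above without overlap and 0 below, against 3.9% and 2.9% of all genes. Without hGFAP replicates 4 and 6, 10 lay above and 0 below, against 5.46% and 3.61%. In such bulk tissue, more cells of a type and more RNA per cell cannot be told apart.

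The 7 members without overlap included both gap junction genes of astrocytes. Gja1 had log2 signals of 10.30, 11.08 and 11.85 in hGFAP tumours (lowest, median, highest), against 9.37, 9.19 and 8.57 in Math1 tumours, a difference of 1.99 (95% interval 1.03 to 2.94, limma adjusted p = 0.160). The other Gja1 probe sets gave 1.77, 1.74, 1.32, 0.84 and 0.29, none called, and those at 0.84 and 0.29 overlapped between the groups. Gjb6 had 7.08, 8.02 and 9.0 in hGFAP tumours, against 6.57, 6.18 and 5.24 in Math1 tumours, a difference of 2.05 (0.81 to 3.29, limma adjusted p = 0.303). Clu, a secreted chaperone, differed by 1.54 (0.91 to 2.17) and had the smallest adjusted p of all genes not called, 0.0613 by limma. Another of its 4 probe sets, with a difference of 1.66, was called when probe sets were tested singly (limma adjusted p = 0.0360). Aldh1l1, a folate enzyme used as a pan-astrocyte marker, differed by 1.02 (0.32 to 1.73). Sparcl1, a secreted matrix protein, differed by 0.99 (0.45 to 1.54), and Slc1a3, the glutamate transporter of radial and Bergmann glia, by 0.86 (0.43 to 1.29). At the other end, Gpr37l1 differed by -0.25 and Aqp4, the water channel of astrocyte endfeet, by 0.12.

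**Figure D4:**
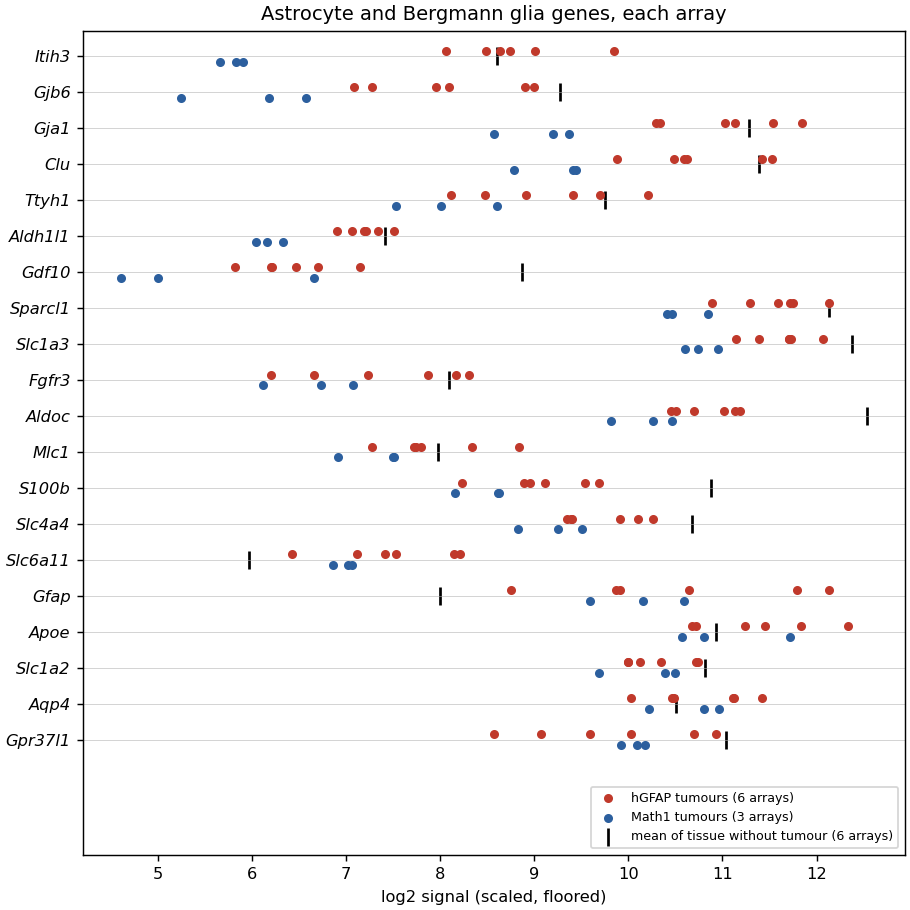
Log2 signal of the 20 astrocyte and Bergmann glia genes on each hGFAP (red) and Math1 (blue) array, ordered by their difference, with the mean of cerebellum without tumour as a black tick. The red points of Itih3, Gjb6, Gja1, Clu, Aldh1l1, Sparcl1 and Slc1a3 lie entirely to the right of the blue points.

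Gfap itself, whose human promoter drives the Cre, did not separate the groups. Its log2 signal was 8.75 at the lowest, 10.28 at the median and 12.13 at the highest in hGFAP tumours, against 10.59, 10.15 and 9.59 in Math1 tumours. The difference was 0.40 with a 95% interval of -1.06 to 1.87 (limma adjusted p = 0.901), so a sizeable change in either direction is within the error. The other Gfap probe sets differed by 0.46 and 1.54 and were not called. Atoh1 had 8.05, 9.66 and 10.22 in hGFAP tumours, against 9.89 to 10.21 in Math1 tumours. Its difference was -0.57 (95% interval -1.57 to 0.43, limma adjusted p = 0.768), and its mean in cerebellum without tumour was 5.32. The list of 15 tested granule neuron precursor genes had a median difference of 0.02, no member called, and no member whose arrays did not overlap. Its members ran from -0.96 for Cxcr4, the chemokine receptor that holds precursors in the outer layer (-0.55 without hGFAP replicate 4), to 0.67 for the homeobox gene Barhl2.

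Genes of neural stem cells and radial glia were divided. Of 14 tested, 7 were positive and 7 negative, with a median of -0.13 that changed sign in 12 of 26 alternatives. Sox2, a transcription factor of neural stem cells, had 7.97, 8.06 and 8.52 in hGFAP tumours, against 7.06, 7.28 and 7.39 in Math1 tumours, without overlap. The difference was 0.88 (95% interval 0.25 to 1.51, limma adjusted p = 0.408). Ptprz1, a receptor phosphatase of radial glia, also lay above without overlap, by 0.67 (0.04 to 1.30). These were the 2 of 14 above without overlap, against 2.91% of all genes. The other end of the list was Sox9, a glial fate factor, at -0.80 (-2.03 to 0.42). Its log2 signal was 4.53 on hGFAP replicate 4 and 6.81 to 8.40 on the other hGFAP arrays, against 7.73 to 8.19 in Math1 tumours, and without that array the difference was -0.29.

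Among genes of the oligodendrocyte lineage, those of its precursors included 2 with lower values on every hGFAP array, by the probe set that stood for each gene. Pdgfra, the growth factor receptor of those precursors, had log2 signals of 9.32, 9.91 and 10.90 in hGFAP tumours, against 11.63, 10.91 and 11.17 in Math1 tumours. The groups did not overlap, by a narrow margin, and the difference was -1.30 (95% interval -1.96 to -0.65, limma adjusted p = 0.170). The other Pdgfra probe sets gave -1.16 and -1.37, were not called and overlapped between the groups. Olig2, a transcription factor of the lineage that is also found in Hedgehog-driven tumours, had 6.17, 7.09 and 7.84 in hGFAP tumours, against 8.26, 8.27 and 8.08 in Math1 tumours. It differed by -1.14 (-2.04 to -0.25, limma adjusted p = 0.450). These 2 of 10 precursor genes lay entirely below, against 2.51% of all genes, and the list's median difference was -0.25. The list was divided, with 4 positive and 6 negative differences, and its highest member was Bcan at 0.43. The list mean was 7.86 to 8.37 on hGFAP arrays and 8.51 on Math1 arrays. Of the 12 myelinating oligodendrocyte genes tested, none separated the groups, and their median was 0.25.

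Within the Hedgehog pathway, Gli3 was the exception. Among 19 tested components it was the only one called, and the median difference was -0.08. Smo differed by -0.32 (95% interval -0.78 to 0.14) and Gli2, the main activator, by -0.08 (-0.99 to 0.83). Boc, a co-receptor for Sonic hedgehog, lay below without overlap at -0.58 (-1.13 to -0.03), but its other probe set, at -0.44, overlapped. Of the 13 output genes tested none was called, and the median was -0.05. Gli1, a direct target used as a readout of the pathway, had 6.36, 8.89 and 9.47 in hGFAP tumours, against 9.31, 9.33 and 9.46 in Math1 tumours. The low value was that of hGFAP replicate 4, the dimmest array, and the difference was -0.84 (-1.75 to 0.06, limma adjusted p = 0.595), or -0.41 without that array. Ptch1, the receptor and target of the pathway, differed by -0.02 (-0.59 to 0.54). Among them, 2 output genes lay below without overlap, against 2.51% of all genes, Pdlim3 at -1.22 (-2.25 to -0.20) and the Wnt antagonist Sfrp1 at -1.13 (-1.73 to -0.52, limma adjusted p = 0.233). At the other end were Igf2, a growth factor (1.03, 95% interval -0.01 to 2.07), Eya1, a transcriptional co-activator (0.81, 0.11 to 1.51), and Bcl2, an inhibitor of cell death (0.65, 0.19 to 1.10), with overlapping arrays. The other Bcl2 probe sets gave 0.57, 0.35 and 0.09 and were not called.

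Proliferation genes had mostly negative differences. Of 26 mitosis genes tested 21 had a negative difference, with a median of -0.41, and of 27 DNA replication genes 22 did, with a median of -0.44. None of either list was called, and 4 lay below without overlap: Aurka and Kif11, a kinase and a motor of the spindle, and Rrm1 and Gins1, a subunit of ribonucleotide reductase and one of the replication helicase. Below without overlap were 2.51% of all genes. The mitosis list mean was 7.76 on hGFAP replicate 4, 8.72 to 9.05 on the other hGFAP arrays and 9.03 to 9.13 on Math1 arrays. With the 3′ to 5′ ratio as a covariate the medians were -0.08 and -0.27, with brightness as a covariate -0.33 and -0.30, and without hGFAP replicates 4 and 6 they were -0.20 and -0.31. Myc, the growth-promoting transcription factor, lay below without overlap at -0.92 (95% interval -1.74 to -0.11), and Mycn differed by -0.87 (-1.84 to 0.10).

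Genes of regional identity are a list of 30 homeobox and paired-box factors that mark levels of the neural tube. Their median was 0.80 over the 15 members tested, or 0.61 with the 3′ to 5′ ratio as a covariate. Many were faint, with a median signal of 6.05 in hGFAP tumours, 5.15 in Math1 tumours and 5.38 in cerebellum without tumour. The signal filter asked for 3 arrays, which 1 group alone can supply, so members high only in hGFAP tumours can enter and raise the list's median and means. The size of this effect was not tested. Of the 15 tested, 2 (Irx5 and Irx1) lay above without overlap, against 2.91% of all genes. Irx5 had 6.66, 7.33 and 7.53 in hGFAP tumours, against 6.05, 6.16 and 5.81 in Math1 tumours, a difference of 1.246 (95% interval 0.73 to 1.76, limma adjusted p = 0.0658). Irx1 differed by 0.80 (0.27 to 1.34). The list mean was 5.97 to 6.71 on hGFAP arrays and 5.46 to 5.80 on Math1 arrays. Of 40 lists, this and the astrocyte list were the 2 with all hGFAP means above, and the precursor list of oligodendrocytes the 1 with all below.

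Several members of this and other lists varied widely among hGFAP tumours. Otx1, a homeobox gene of forebrain and midbrain, had 8.18, 5.56, 3.84, 3.50, 5.11 and 6.26 on hGFAP replicates 1 to 6, against 7.76, 7.82 and 7.63 in Math1 tumours. Replicate 1 was thus level with the Math1 arrays and the other 5 lay below them. Hoxb3, a hindbrain Hox gene, was 4.75, 8.12, 10.39, 6.08, 5.77 and 5.01, against 4.98, 4.86 and 3.85 in Math1 tumours, highest in hGFAP replicates 3 and 2. Grb10, an imprinted adaptor that restrains insulin receptor signalling, was 5.96 in hGFAP replicate 1 and 7.89 to 9.39 in the other 5, against 5.94, 6.15 and 6.12 in Math1 tumours. Here too replicate 1 was level with the Math1 arrays. Without that array 12 genes were called, among them Grb10, Lap3, Pdgfra and Clu. For Grb10, Lap3 and Pdgfra it held the hGFAP value nearest the Math1 arrays. Leaving it out therefore enlarges their differences by construction, and these calls are no separate support. Ttr, the transthyretin of choroid plexus, was at the floor of 3.37 on hGFAP replicates 1 and 6 and 12.13 to 13.29 on the other 4, against 3.37 to 9.51 in Math1 tumours. Choroid plexus genes had a median signal of 6.60 in hGFAP and 5.49 in Math1 tumours, so the signal filter can affect this list too. Their median difference was 0.67 over 7 tested, with none separating the groups by the probe set that stood for it. For Clic6 that probe set differed by 0.81. Another Clic6 probe set did separate them, with 7.53 to 8.62 in hGFAP and 6.07 to 7.08 in Math1 tumours. Its difference was 1.83 and was not called when probe sets were tested singly (limma adjusted p = 0.0778).

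Markers of other cell types that a tumour piece may hold are given for comparison. The 14 tested mural, fibroblast and meningeal genes had a median of 0.78. Of these, 11 differences were positive and 3 negative, from Slc6a13 at -1.05 to Col3a1 at 1.37. Above without overlap were 3, against 2.91% of all genes: Pdgfrb (1.03), Foxc1 (0.80) and Acta2 (0.51). Their list mean was 6.50 to 7.28 on hGFAP arrays and 6.12 to 6.78 on Math1 arrays. Ependymal genes had a median of 0.62 over 8 and endothelial genes 0.28 over 12, with none separating the groups. The ependymal genes were faint, with a median signal of 5.17 in hGFAP and 4.53 in Math1 tumours. The signal filter can affect their median as it can for the regional list, which was not tested. Microglial genes had a median of -0.14 over 15, with 5 positive and 10 negative differences, from Trem2 at -1.43 to Cd14 at 1.93. Csf1r, the receptor for colony stimulating factor, was the only one above without overlap (0.69). Mature granule neuron genes had a median of 0.41 over 15, which was -0.04 with the 3′ to 5′ ratio as a covariate. No gene of these lists was called, and their part in the astrocyte result was not tested.

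**Figure D5:**
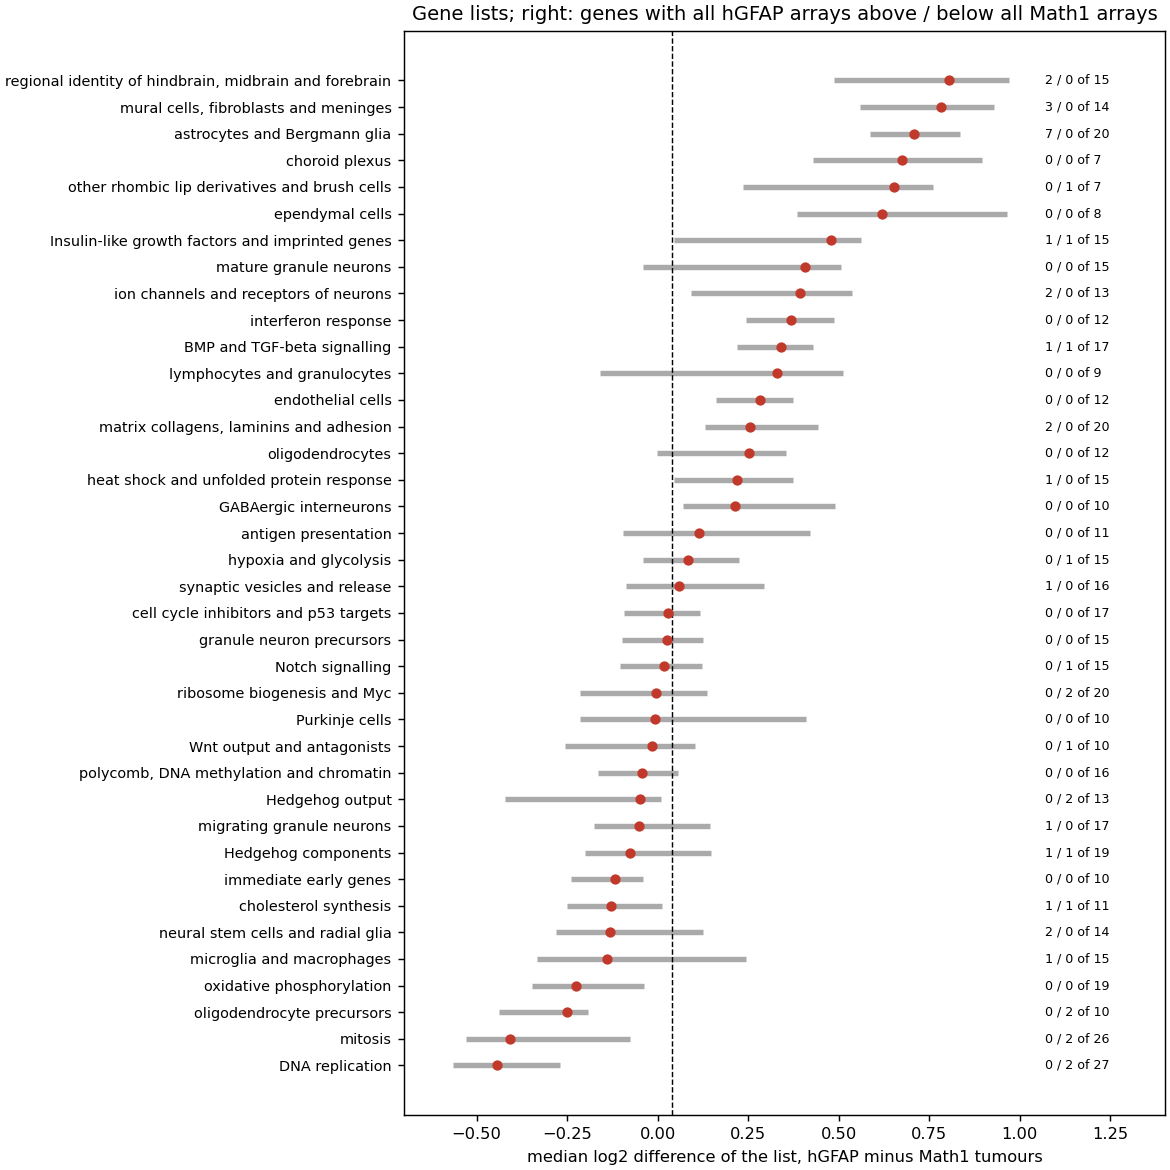
Median log2 difference, hGFAP minus Math1, of each list with 5 or more genes tested (red point), with its range over 26 alternatives (grey bar) and the median of all genes, 0.04 (dashed line). The figures at the right count genes with all hGFAP arrays above and below all Math1 arrays, which reach 7 of 20 for astrocyte and Bergmann glia genes.

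Further genes ranked by p but not called are given as values. Above Math1 tumours were Gsta4, a glutathione transferase (1.5), Cd72, a B cell surface protein (1.55), Limch1, a regulator of actomyosin (1.24), and Plce1, a phospholipase C (1.06). Their adjusted p was 0.136 to 0.160 by limma. For Cd72, 1 Math1 array was at the floor, so the size of its difference depends on the floor. Below were Lap3, a leucine aminopeptidase (-1.01, limma adjusted p = 0.115), Aff3, a nuclear protein of transcription elongation complexes (-1.503), Psat1, of serine synthesis (-1.09), Vxn, a neural differentiation gene (-1.46), and Pold1, the catalytic subunit of DNA polymerase delta (-1.14). Mir124-2hg, the host transcript of a neuronal microRNA, had 3.37, 4.31 and 5.42 in hGFAP tumours, against 7.47, 6.66 and 6.82 in Math1 tumours. Its difference was -2.58 (95% interval -3.73 to -1.43, limma adjusted p = 0.116), with 1 hGFAP array at the floor. Tlx3, the homeobox gene whose Cre line is another arm of the series, had 4.90, 6.61 and 7.15 in hGFAP tumours, against 7.44 to 7.62 in Math1 tumours, a difference of -1.16 (-2.21 to -0.12, limma adjusted p = 0.528).

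Seen over all genes, no separation of the 2 groups beyond their own spread was detected. The share of the summed squared distance among the 9 arrays that lay between the groups was 16.3%, with an exact one-sided permutation p of 0.119 over 84 splits, where the smallest possible is 0.0119. Pearson's r across genes was 0.842 to 0.937 between hGFAP and Math1 arrays, 0.827 to 0.942 among hGFAP arrays and 0.945 to 0.958 among Math1 arrays. Of the 6 hGFAP arrays, 5 had a higher median r with the Math1 arrays than with the other hGFAP arrays, the exception being replicate 4. Each Math1 array had a higher median r with its own group than with the hGFAP arrays. The part of brightness and of the 3′ to 5′ ratio in these correlations was not tested. The SD of a gene was 0.452 at the median in hGFAP tumours and 0.260 in Math1 tumours. For 55.6% of the genes the 95% interval of the difference lay within 2-fold in both directions, and for 96.3% within 4-fold. For the rest it reached past 2-fold in at least 1 direction.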

How the data were processed

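Total RNA from 27 mouse cerebellar samples (5 ug each, per the labels' protocols) was hybridised to Affymetrix arrays. The deposited values are linear signal intensities computed by the authors with MAS5, per the submitters' processing notes, for 45101 probe sets. The MAS5 version and scaling target are not given in the sources used here, and no detection calls were used, so low values can be background. The number of arrays limits the precision.

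From these, each array was scaled to a common 2% trimmed mean (123.6), signals under 10.3 (20th percentile) were raised to that floor (3.37), and log2 was taken. Probe sets above 45.6 (the table's median) on 3 or more arrays were kept (30107). GEO's annotation gave 1 gene for 34958 probe sets and several for 932, while 9211 were unlisted. Gene symbols of 34754 were matched to RefSeq by Entrez ID. The probe set with the highest mean stood for its gene, giving 13527 genes. Overlap was judged on that probe set, and for some genes, such as Gria1 and Id4, another probe set overlapped. Levels of different probe sets are not comparable. Genes were fitted with limma 3.58.1 in R 4.3.3 (means of 6 groups over all 27 arrays, trend and robust moderation, two-sided, 21 residual degrees of freedom), with Benjamini-Hochberg adjustment over all genes, called under 0.05. Intervals are 95% intervals of the fit. The fit was tested on simulated data. Separation over all genes was tested by exact permutation of the 9 arrays.

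Named genes were taken from 7 set by the design (Atoh1, Gfap, Smo, Gli1, Ptch1, Olig2, Tlx3), the called genes without overlap, the 10 smallest p-values in each direction where fewer than 5 were called, and the called, highest and lowest members of 40 gene lists. Not all of these are named, and the highest and lowest members are given for some lists only. Genes whose arrays did not overlap, and those described for their spread among hGFAP tumours, were named after their values were seen. The comparison and the lists were chosen with earlier results of these data known. Alternatives changed scaling, floor, filter, probe sets, arrays and covariates.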

Additional observations from a re-analysis of the deposited data

Results flagged for a closer look

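Among 79 sets of 6 or 7 values examined for a sample far from the others, 5 had one. Chance gives about 1 in 20, or about 4 of 79, so this number is near the chance level, and the sets share genes and arrays. In hGFAP tumours, 4 of them were hGFAP replicate 4, the dimmest array with the highest 3′ to 5′ ratio. Its Gli1 signal was 6.36, the next lowest hGFAP value 8.43. Its mean over Hedgehog output genes was 8.29, over Hedgehog components 7.60 and over mitosis genes 7.76, where the next lowest were 8.80, 7.87 and 8.72. Without this array the same 5 genes were called. In cerebellum without tumour, control 6, from a Ptc1+/- mouse, had an Itih3 signal of 9.93, against 8.56 for the next highest.

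A further 6 probe sets that did not stand for their gene in the comparison passed the threshold when each probe set was tested on its own, with the mean of the higher tumour group above every array without tumour. The probe set of Isl1, a homeobox gene of motor neurons and other lineages, differed by -3.68, with values of 3.37 to 4.67 in hGFAP tumours and 6.47 to 7.73 in Math1 tumours, and the other Isl1 probe set by -2.11 (limma adjusted p = 0.432). One of Wnt4, a Wnt ligand, differed by -2.74 and the other by -1.29. One of Edaradd, an adaptor of the ectodysplasin receptor, differed by 2.33, and the other 3 by 2.05, 1.38 and 1.31. For the rest, probe sets of 1 gene disagreed. One of Gnb1 differed by 2.43, with all 3 Math1 arrays at the floor, and the others by 0.19 and 1.26. One of Vwa5a differed by 2.34 and the other by 0.30. One of Pdxdc1 differed by -2.88, and the others by 0.81, -0.12 and 0.82. For all of these 6 but Pdxdc1, at least 1 array of the lower group was at the floor, so the size of the difference depends on the floor.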

How the results depend on the processing

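Against 5 genes called (4 higher, 1 lower), 3 (2 and 1) were called after scaling to a common median, 6 (4 and 2) with no filter, 2 (1 and 1) with only the 9 arrays fitted, 3 (2 and 1) with only the 19 SmoM2 arrays, 90 (56 and 34) with array weights, 2 (1 and 1) with the 3′ to 5′ ratio as covariate, 7 (5 and 2) with brightness as covariate, 26 (19 and 7) without arrays whose trimmed mean was under 85, and 13 (9 and 4) when every probe set was tested on its own, which was chosen after seeing the data. Leaving out 1 array at a time gave 1 to 12 calls (1 to 7 higher, 0 to 5 lower): 1 without Math1 replicate 1, 2 without Math1 replicate 3, 3 without Math1 replicate 2, hGFAP replicate 3 or hGFAP replicate 5, and 12 without hGFAP replicate 1. Without Math1 replicate 1, limma called 0 genes lower, and 705 genes in either direction had an unadjusted p under 0.05. The cause was not tested. Over 26 alternatives Itih3 kept its call in 26 (2.79 to 3.20), Adck5 in 25, Gli3 in 20, Plpp3 in 16 and Pltp in 16, with adjusted p up to 0.0155, 0.0801, 0.230, 0.223 and 0.230. Scaling to a common median moved the median of all genes to -0.09, against 0.04. The distance share was 14.4% to 21.2%, never under an exact p of 0.05. Of 571 recomputed values of 22 genes not called, 528 stayed uncalled in the same direction, 34 became called and 9 reversed, all of Ptch1: 0.0497 with quantile normalization, 0.15 with array weights, 0.0015 with brightness as covariate, 0.0520 without dim arrays, and -0.19 to 0.14 over the single arrays left out, positive without Math1 replicate 1 or 3 or hGFAP replicate 2, 3 or 4. Counting overlap without hGFAP replicate 4, or 4 and 6, was chosen after seeing the data. Samples with the same replicate number did not deviate together (r = -0.04, 0.05 and -0.12 for numbers 1, 2 and 3), so no pairing by number was seen. So few values cannot exclude one. With the replicate number as a block 6 genes were called, the 5 and Clu.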

Other observations

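Other gene groups gave few separations. Of all genes, 2.91% lay above without overlap and 2.51% below. Among 20 matrix and adhesion genes, Lama2, a laminin chain of basement membranes, and Sparc, a collagen-binding matrix protein, lay above without overlap, with differences of 1.49 (95% interval 0.64 to 2.34) and 1.05 (0.47 to 1.64), and the lowest was Lama1 at -1.07. Neither was called. Sparc had log2 signals of 10.12, 10.88 and 11.41 in hGFAP tumours (lowest, median, highest), against 9.96, 9.80 and 9.57 in Math1 tumours. Among 13 neuronal channel and receptor genes, 2 lay above without overlap. The larger difference was that of Gria1, a subunit of AMPA receptors found in Bergmann glia. It had 8.39, 9.07 and 9.93 in hGFAP tumours, against 7.45, 7.48 and 7.95 in Math1 tumours. The difference was 1.42 (0.68 to 2.17, limma adjusted p = 0.199).

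Among BMP and TGF-beta genes, Id4, an inhibitor of helix-loop-helix factors, lay above without overlap at 1.02 (95% interval 0.21 to 1.83), and the ligand Bmp5 lay below at -1.22 (-2.36 to -0.08). Among insulin-like growth factor and imprinted genes, Dlk1 lay above at 1.13 (0.13 to 2.12) and Igfbp4, a binding protein of the growth factors, below at -1.01 (-1.74 to -0.27). The Notch target Hey1 lay below at -0.85 (-1.56 to -0.13) and the Wnt target Axin2 below at -0.81 (-1.49 to -0.14). None of these was called. Each was the only member of its list on its side, among 17 BMP and TGF-beta, 15 growth factor and imprinted, 15 Notch and 10 Wnt genes tested. Of all genes, 2.91% lay above and 2.51% below. Oxidative phosphorylation genes had a median of -0.23 over 19 (-0.04 with the 3′ to 5′ ratio as a covariate) and interferon response genes 0.37 over 12, with none separating the groups.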
